A study of Homo sapiens with 16 samples.

Results

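The HOX genes are the homeobox transcription factors of the HOXA, HOXB, HOXC and HOXD clusters. They were taken as every row of the deposited table whose symbol is HOX, a cluster letter and a number, which gave 39 of the 40663 symbols. All 39 were located in the GENCODE annotation of GRCh38, on chromosomes 7 (HOXA, 11 genes), 17 (HOXB, 10 genes), 12 (HOXC, 9 genes) and 2 (HOXD, 9 genes). The table came from bulk RNA-seq of the human colon fibroblast line Ccd18-Co, with 4 cultures in each of 4 groups. Unstimulated cells received no cytokine, and DMSO according to the sample titles, whereas their columns in the table carry the word none. The other 3 groups had received 3 cytokine pulses (10 ng/ml of TNF, of OSM and of IL-17A, and 0.1 ng/ml of IL-1B), each pulse lasting 72 h and followed by 96 h of recovery. After 1 week of rest they were kept for 5 days in DMSO (vehicle), belinostat at 250 nM, a histone deacetylase inhibitor, or GSK-J4 at 10 µM, an inhibitor of histone H3 lysine 27 demethylases. These are the doses of the labels, and the study's text gives other concentrations in places for the inhibitors and for IL-1B. Extracts were made 2 weeks after the end of treatment, so each value describes cells after washout. All cultures were of a single line, and nothing in the labels says that replicates were grown separately, so p-values measure only the spread between these cultures, which may be technical.

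HOX proteins bind DNA together with TALE cofactors of the PBX, MEIS and PKNOX families and specify position along the body axis. Each cluster is read in order: genes with low numbers are used towards the head, and genes with high numbers towards the tail and the ends of the limbs. Genes with the same number in different clusters are paralogs and form a paralog group. Adult fibroblasts keep the HOX pattern of the site they came from. Silent HOX genes are held by Polycomb complexes, which write and read methylation of lysine 27 on histone H3, whereas trithorax complexes keep active ones on, and retinoic acid switches on the low-numbered genes during development.

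Total estimated counts ranged from 14.42 to 19.48 M per library, and a floor of 3 counts corresponds to 0.154 to 0.208 counts per 1 M, for counting error only. Levels are given as normalized counts, that is counts divided by DESeq2 size factors, and levels are compared between genes only per kilobase of the longest transcript. All 10 fibroblast markers (COL1A1, PDGFRA and others) averaged at least 10 normalized counts, as did 4 of 5 smooth muscle and pericyte markers, 2 of 6 epithelial markers, 1 of 4 endothelial markers, 1 of 5 leukocyte markers and 0 of 4 glial and neuronal markers. The epithelial pair was KRT8 and KRT18, and KRT20 never had more than 3 counts in a library. In bulk samples, fewer cells of a type and less RNA per cell cannot be told apart.

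To show the DNA beside the values, the bases before the transcription start are given for HOXA11 and HOXA7, which passed a test below, for HOXA9 as a well-expressed neighbour, and for HOXD12, which had 3 counts in all 16 libraries together. They are RefSeq promoter stretches of GRCh38.p14, 5′ to 3′ on the gene's strand. Capitals mark matches to TCANGTG, an E-box with a leading T, on either strand. HOXA7 is shown for 171 bases and the others for 250 bases, since bases in an annotated untranslated region were left out. They lie at chr7:27185233-27185482 (HOXA11, minus strand), chr7:27156755-27156925 (HOXA7, minus), chr7:27165538-27165787 (HOXA9, minus) and chr2:176099545-176099794 (HOXD12, plus).
HOXA11: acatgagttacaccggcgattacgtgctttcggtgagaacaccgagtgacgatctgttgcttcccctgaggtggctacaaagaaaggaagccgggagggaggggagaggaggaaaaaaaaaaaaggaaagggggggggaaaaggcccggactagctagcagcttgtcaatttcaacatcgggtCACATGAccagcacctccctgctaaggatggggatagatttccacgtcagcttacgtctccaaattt
HOXA7: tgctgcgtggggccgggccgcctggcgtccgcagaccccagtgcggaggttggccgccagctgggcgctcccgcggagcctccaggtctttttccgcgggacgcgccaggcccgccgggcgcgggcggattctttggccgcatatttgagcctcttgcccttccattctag
HOXA9: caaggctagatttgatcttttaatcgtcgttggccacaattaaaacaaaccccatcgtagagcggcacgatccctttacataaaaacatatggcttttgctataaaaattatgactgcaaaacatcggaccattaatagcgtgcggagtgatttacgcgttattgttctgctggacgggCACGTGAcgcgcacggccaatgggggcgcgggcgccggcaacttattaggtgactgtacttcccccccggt
HOXD12: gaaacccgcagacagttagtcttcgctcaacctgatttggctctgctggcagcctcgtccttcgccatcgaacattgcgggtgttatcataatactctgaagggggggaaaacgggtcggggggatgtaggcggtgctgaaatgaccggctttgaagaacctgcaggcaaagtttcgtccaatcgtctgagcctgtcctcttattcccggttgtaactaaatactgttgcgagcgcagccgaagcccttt
The HOXA11 stretch is covered by exons of the antisense gene HOXA11-AS in GENCODE. The HOXA7 and HOXA9 stretches lie inside the spans of their own genes, which GENCODE starts further upstream.

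The RefSeq promoter table held 20 of the 39 genes, with 26 distinct stretches. HOXA5, HOXB2, HOXB3, HOXB4, HOXB5, HOXB6, HOXB7, HOXB8, HOXB9, HOXB13, HOXC6, HOXC8, HOXC9, HOXC10, HOXC11, HOXC12, HOXC13 and HOXD9 were not in it. Over the full 250 bases, TCANGTG was found in 11 of 26 HOX stretches (42.3%) and in 10.7% of all 34788 distinct promoter stretches. By gene, 7 of 11 expressed HOX genes and 4 of 9 HOX genes below that level held it, so the letters were found in both classes. HOXA7 is among the expressed genes with a match, which lies in the bases left out of the stretch shown. The motif was chosen after the HOX stretches had been read, the clusters are copies of a common ancestor, and HOXC4 and HOXC5 share the same stretch, so the counts are a description. TGATNNAT, the site of PBX and HOX pairs, was found in 3 of 26 HOX stretches (11.5%) and in 6.49% of all stretches.

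Of the 39 genes, 21 were expressed, meaning a mean of at least 10 normalized counts over the 16 libraries, 13 were lower and 5 had no count in any library. HOXA had 10 of 11 genes expressed, HOXB 7 of 10, HOXD 4 of 9 and HOXC 0 of 9. The genes without a count were HOXC5, HOXC11, HOXC12, HOXC13 and HOXD1. Reads that fall in exons shared by neighbouring genes could have been split between them, and this touches HOXC5, of whose exon bases 67.3% also belong to readthrough genes on the same strand. It also touches expressed genes, with same-strand shares of 31.3% for HOXA4, 18.2% for HOXD10, 16.6% for HOXB6 and 15.9% for HOXA9. The other expressed genes had at most 9.93% (HOXA10).

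HOXA11 had the highest level per kilobase, 375.1 normalized counts per kb, followed by HOXB7 at 329.1 and HOXA10 at 304 normalized counts per kb. HOXA11 and HOXA10 are posterior genes that pattern the limbs and the urogenital tract, and HOXB7 is a gene of the trunk. HOXA11 exceeded HOXB7 in 13 of 16 libraries and HOXB7 exceeded HOXA10 in 10 of 16, and the ranges of each of these neighbours overlapped. Next came HOXB2 (188.6 per kb), HOXA9 (179.4), HOXA7 (109.3), HOXB4 (97.46), HOXB3 (94.79), HOXB6 (93.62), HOXA5 (54.09), HOXD8 (52.88), HOXB5 (38.32), HOXA6 (37.16) and HOXA3 (36.74). HOXD4, HOXD9, HOXA4, HOXA2, HOXD10 and HOXB8 lay between 5.589 and 13.65 normalized counts per kb. Along this order of 21 genes, neighbours did not overlap over the libraries at 4 steps, from HOXA10 to HOXB2, HOXA9 to HOXA7, HOXB6 to HOXA5 and HOXA3 to HOXD4. This depends on the length used. With all exons of a gene merged as its length, the ranges overlapped at each of these steps except HOXA10 to HOXB2. HOXD8 exceeded HOXB5 in 16 of 16 libraries, although the ranges of these neighbours overlapped. At the remaining steps the ranges overlapped and the order turned in at least 1 library.

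**Figure D1:**
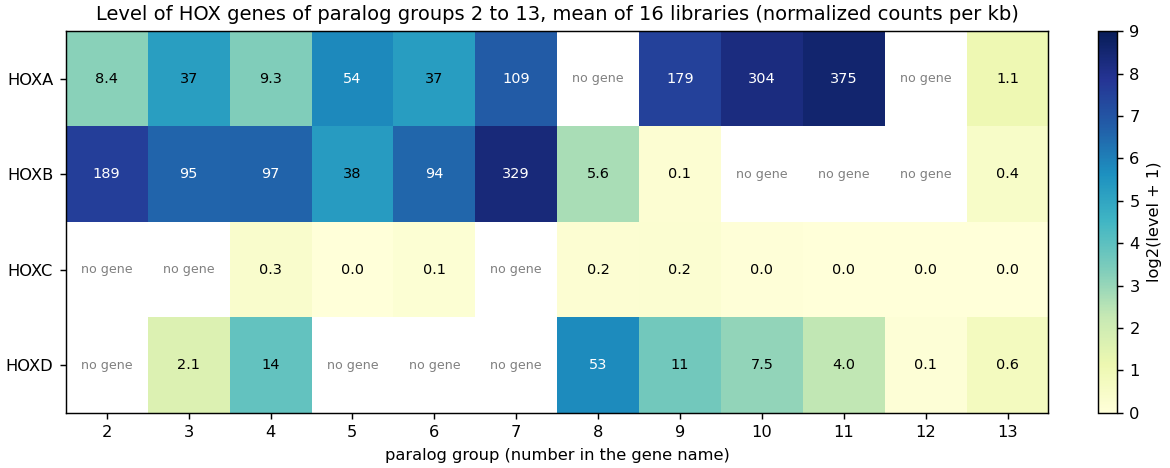
Mean level of each HOX gene of paralog groups 2 to 13 over the 16 libraries in normalized counts per kb of the longest transcript, with clusters as rows and paralog groups as columns; colour is log2 of the level plus 1. Expressed genes reached group 11 in HOXA and group 8 in HOXB, where HOXB8 was at 5.589. The peaks were 375.1 at HOXA11 and 329.1 at HOXB7, whereas no HOXC gene exceeded 0.2825.

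Summed by paralog group over the clusters, group 7 (HOXA7 and HOXB7) took 21.3% of the level per kilobase, group 11 took 18.4%, group 10 took 15.1%, group 2 took 9.55% and group 9 took 9.23%. The high-numbered end of the series was low. Group 12 took 0.00358% and group 13, which marks the tail end of the body and the hindgut, took 0.104%. HOXA13 averaged 5.541 normalized counts, with 12 counts in its highest library, HOXD13 averaged 1.567 and HOXB13 averaged 1.195. Within HOXA, the level fell from HOXA11 to HOXA13 and within HOXB from HOXB7 to HOXB8 and HOXB9, which averaged 12.16 and 0.3797 normalized counts. The cluster order of the levels was thus not monotonic, with HOXB2 above HOXB3 and HOXB4, and HOXA2 and HOXA4 below HOXA3.

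HOXC was the quiet cluster in these cells. The most abundant HOXC gene per kilobase was HOXC4, with 8 counts over the 16 libraries and at most 3 in a library. Its normalized counts were 0.9651, 0, 0 and 0.9763 in unstimulated cells, 0, 0.9582, 0 and 2.766 in vehicle, 0, 0, 0 and 1.038 under belinostat, and 1.017, 0, 0 and 0 under GSK-J4. All of them lay at or below the floor, so no fold is given. The 9 HOXC genes together summed to at most 5.749 normalized counts in a library. HOTAIR, the long noncoding RNA transcribed within HOXC and named here after its values were seen, averaged 0.06357 normalized counts.

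All HOX genes together summed to 4733 ± 170 normalized counts (SD, n = 4) in unstimulated cells, 4462 ± 121 (SD, n = 4) in vehicle, 4543 ± 202.7 (SD, n = 4) under belinostat and 4285 ± 138.9 (SD, n = 4) under GSK-J4, and this was 232.6 to 283.4 per 1 M estimated counts over the 16 libraries. The HOXA sum was 2801 ± 144.5, 2666 ± 63.94, 2748 ± 167.4 and 2482 ± 89.84 normalized counts in the same order of groups (SD, n = 4 each). The HOXB sum was 1721 ± 19.89 in unstimulated cells and 1584 ± 65.79, 1616 ± 40.56 and 1593 ± 75.03 in vehicle, belinostat and GSK-J4. Each of the 4 unstimulated HOXB sums, 1691 to 1733, was above each vehicle sum, 1494 to 1651. The HOXD sum was 177.7 ± 22.33 under belinostat and 209.6 to 209.9 on average in the other groups, and its belinostat libraries (154.7 to 200.3) overlapped those of vehicle (195.5 to 220.4). These sums were not tested.

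The first comparison asked whether the cytokine pulses moved HOX expression, and it set vehicle against unstimulated cells. A gene was called at an adjusted p under 0.05 in DESeq2's Wald test, two-sided, with Benjamini-Hochberg adjustment over all genes that passed its filter on the mean count. Of the 39 HOX genes, 24 passed the filter and 0 were called, where 1.74% of all 16240 genes tested were called. edgeR's quasi-likelihood test also called 0 HOX genes, against 1.15% of all genes. At an unadjusted p under 0.05 there were 3 HOX genes, against 8.92% of all genes. They were HOXA3 (log2 fold change -0.35, SE 0.17), HOXA5 (-0.37, SE 0.18) and HOXB3 (-0.19, SE 0.09), all below 0, with DESeq2 adjusted p of 0.508, 0.493 and 0.492. HOXA5 had 87.82, 98.11, 120.7 and 100.6 normalized counts in unstimulated cells and 63.77, 79.53, 86.63 and 85.75 in vehicle, so that every vehicle library was below every unstimulated library.

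Of the 24 HOX genes tested in vehicle against unstimulated cells, 20 had a log2 fold change below 0, and their median was -0.16, beside a median of -0.0048 and a share below 0 of 51.6% over all genes tested. The low side held in each cluster, with 9 of 11 HOXA genes, 6 of 7 HOXB genes and 5 of 6 HOXD genes below 0. Without unstimulated replicate 3 the median was -0.09, with 15 of 22 HOX genes below 0 and 0 at an unadjusted p under 0.05 in DESeq2. The genes share libraries and in part exons, and none of the single differences was called. Markers moved in this comparison too. RGS5 (0.84) was called higher among 4 smooth muscle and pericyte markers tested and LUM (0.36) among 10 fibroblast markers. TOP2A (0.81) and CENPF (1.00) were called higher among 10 proliferation markers (list median 0.31). Of all genes tested, 1.74% were called. The calls of TOP2A, CENPF and LUM were lost in edgeR (adjusted p of 0.0946, 0.0829 and 0.115). Each was also lost without any of several single libraries (DESeq2 adjusted p up to 0.157, 0.183 and 0.105). In DESeq2, 0 of 3 epithelial, 0 of 2 endothelial and 0 of 1 leukocyte markers tested were called, with 0, 1 and 1 at an unadjusted p under 0.05. The summed proliferation markers were 1239 to 1470 normalized counts in unstimulated cells and 1407 to 1657 in vehicle, and the summed smooth muscle and pericyte markers were 4875 to 6602 and 6072 to 6749. Their part in the HOX values was not tested.

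The second comparison asked what belinostat left 2 weeks after washout in cytokine-pulsed cells, and it set belinostat against vehicle. DESeq2 called 0 of 21 HOX genes tested, against 6.26% of all 14209 genes tested, and edgeR called 0, against 4.93% of all genes. At an unadjusted p under 0.05 there were 2, against 15.9% of all genes. They were HOXA11, with a log2 fold change of 0.15 (SE 0.06 and DESeq2 adjusted p = 0.0954), and HOXD8, at -0.26 (SE 0.12, DESeq2 adjusted p = 0.222). The median over the HOX genes tested was -0.03, beside 0.0029 over all genes, and 12 of 21 were below 0. Of the markers tested, DESeq2 called 1 of 4 for smooth muscle and pericytes, 2 of 2 epithelial, 3 of 10 fibroblast and 0 of 9 proliferation markers. Among these, the call of COL1A1 was lost in edgeR (adjusted p = 0.0623). The part of the markers in the HOX values was not tested.

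The third comparison set GSK-J4 against the same vehicle libraries as belinostat, so both share their control values. DESeq2 called 0 of 17 HOX genes tested, against 1.92% of all 13197 genes tested, and edgeR called 0, against 0.631% of all genes. At an unadjusted p under 0.05 there were 2, against 10.0% of all genes: HOXA10, at -0.17 (SE 0.08, DESeq2 adjusted p = 0.393), and HOXA11, at -0.14 (SE 0.06, DESeq2 adjusted p = 0.291). The median was -0.07, beside -0.0025 over all genes, and 11 of 17 were below 0. Of the markers tested, DESeq2 called 3 of 4 for smooth muscle and pericytes, 2 of 8 proliferation, 2 of 10 fibroblast and 0 of 2 epithelial markers. The proliferation calls (MKI67 and TOP2A) and the fibroblast calls (COL1A2 and COL3A1) were lost in edgeR (adjusted p from 0.0616 to 0.171). The part of the markers in the HOX values was not tested. None of the 9 HOXC genes passed the filter in any comparison.

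How large a difference the libraries leave room for can be read from the intervals. For the 13 HOX genes that averaged 50 normalized counts or more, each 95% interval of the log2 fold change lay within 1 of 0 in each of the 4 comparisons. The outermost bounds were -0.71 (HOXA5) and 0.31 (HOXD8) for vehicle against unstimulated, -0.49 (HOXD8) and 0.64 (HOXA5) for belinostat against vehicle, and -0.45 (HOXA3) and 0.44 (HOXA5) for GSK-J4 against vehicle. They were -0.55 (HOXA7) and 0.57 (HOXB5) for belinostat against GSK-J4. A change by a factor of 2 lay outside these intervals. The 8 genes with means from 10 to 50 had wider intervals, down to -1.59 (HOXD4, belinostat against GSK-J4), so a change by a factor of 2 was inside some of them.

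**Figure D2:**
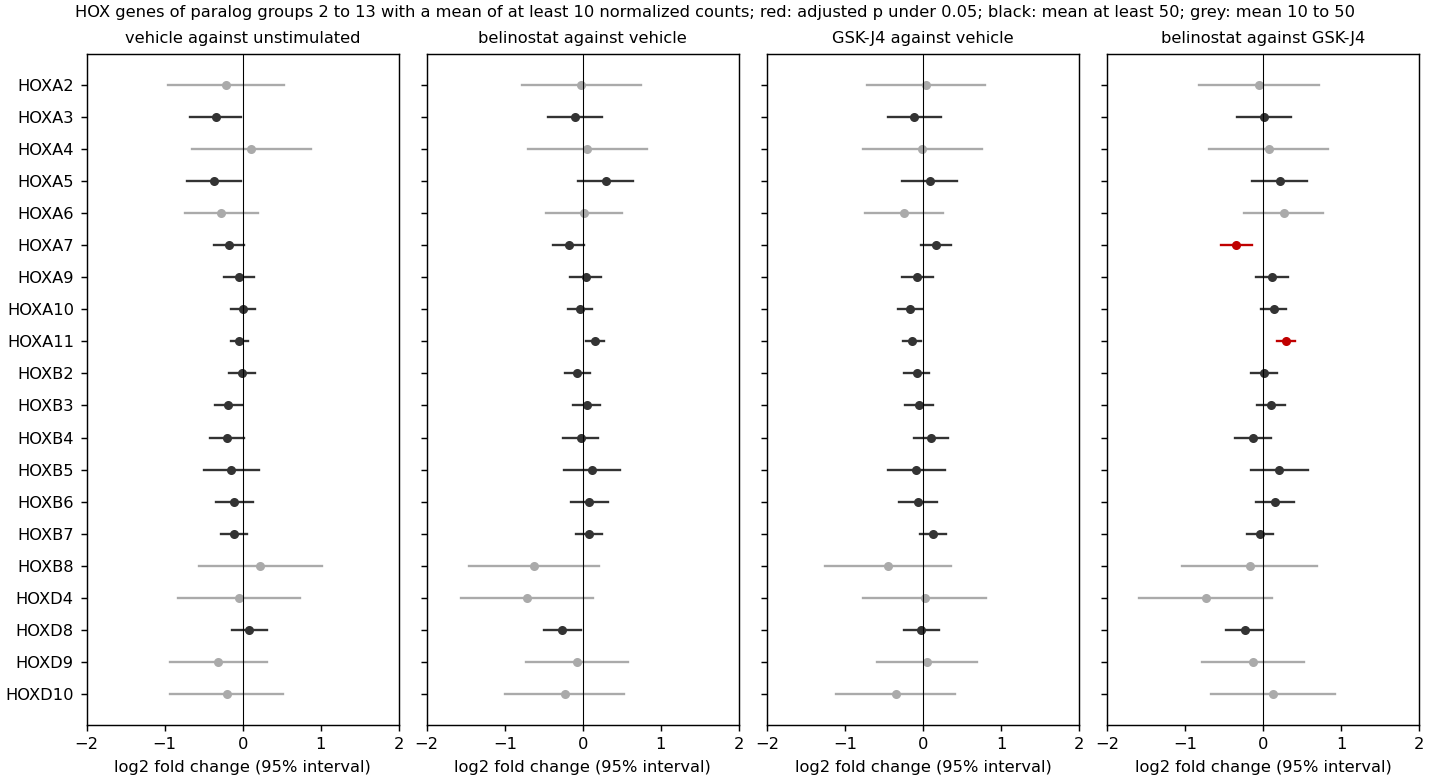
Log2 fold change with its 95% interval for the 20 expressed HOX genes of paralog groups 2 to 13 in the 4 comparisons (columns, DESeq2); red marks an adjusted p under 0.05, black a mean of 50 normalized counts or more and grey a mean of 10 to 50. The only red points are HOXA11 at 0.29 and HOXA7 at -0.35 in belinostat against GSK-J4; the grey intervals are the widest.

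The fourth comparison set the compounds against each other, which uses no vehicle library in the difference. DESeq2 called 2 of 22 HOX genes tested, against 12.2% of all 14717 genes tested. HOXA11 was the call that was higher under belinostat, where 6.18% of all genes were called, and HOXA7 was the call that was lower, where 6.01% were called. edgeR also called these 2 genes, against 11.3% of all genes, and 3 HOX genes had an unadjusted p under 0.05, against 22.6%, the other one being HOXD8 (-0.24, SE 0.12). The share of HOX genes called was thus not above that of all genes. The median over the HOX genes tested was 0.01, beside 0.0034 over all genes, and 10 of 22 were below 0.

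HOXA11 (ENSG00000005073.6, GRCh38 chr7:27181157-27185232) shapes the forearm, the kidney and the uterus in development. Its normalized counts were 1025, 1007, 1035 and 1003 in unstimulated cells, 948, 984.1, 1033 and 990.3 in vehicle, 1064, 1170, 1066 and 1104 under belinostat, and 878.8, 826.3, 988.5 and 895.1 under GSK-J4. The 4 belinostat libraries were the 4 highest of the 16, and 3 of the 4 GSK-J4 libraries were the 3 lowest. The log2 difference of belinostat from GSK-J4 was 0.29 (SE 0.06, DESeq2 adjusted p = 1.49e-05), a fold of 1.23 with a 95% interval of 1.13 to 1.33. HOXA11 was called in every alternative run for this comparison, with adjusted p from 1.51e-07 to 0.0013. Set against vehicle, belinostat lay above it and GSK-J4 below it, and neither of those differences was called.

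HOXA7 (ENSG00000122592.8, GRCh38 chr7:27153716-27157936) is a trunk gene whose paralog here is HOXB7. Its normalized counts were 241.3, 255.3, 224.6 and 241.2 in unstimulated cells, 203.7, 207.9, 204.9 and 236.1 in vehicle, 163.3, 202.7, 182.3 and 205.6 under belinostat, and 242.1, 255, 222.5 and 235.8 under GSK-J4. Every GSK-J4 library was above every belinostat library, the vehicle libraries lay between and overlapped both, and the unstimulated libraries overlapped those of GSK-J4. The log2 difference of belinostat from GSK-J4 was -0.35 (SE 0.10, DESeq2 adjusted p = 0.00856), a fold of 0.787 with a 95% interval of 0.685 to 0.903. The call was lost without belinostat replicate 17 (-0.28, DESeq2 adjusted p = 0.061) and without GSK-J4 replicate 22 (-0.31, DESeq2 adjusted p = 0.0555), and the alternatives gave adjusted p from 0.00674 to 0.061. HOXA7 and HOXA11 moved opposite ways although they lie in the same cluster.

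The strand of the reads is not stated, and some exon bases of both genes are shared with antisense genes. For HOXA11, 27.2% of exon bases are shared with HOXA11-AS, which averaged 223.5 normalized counts. For HOXA7, 62.5% are shared with HOXA-AS3, which averaged 1.786 normalized counts. Like HOXA11, HOXA11-AS was called higher under belinostat than under GSK-J4, a call lost without some single libraries. Its part in the HOXA11 values was not tested. Reads from such bases cannot be told apart without strand.

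HOXB7 and HOXD8, the most abundant genes of their clusters per kilobase, were not called in any comparison. HOXB7 had 527.9, 444.5, 419 and 438.4 normalized counts in unstimulated cells, 386.4, 424.5, 413.6 and 472.1 in vehicle, 481.2, 449.4, 433.7 and 431.9 under belinostat, and 445.5, 461.8, 478.5 and 469.6 under GSK-J4. All groups overlapped, with unstimulated replicate 1 the highest of the libraries and vehicle replicate 13 the lowest. HOXD8 had 149.6, 146.2, 127.8 and 130.8 normalized counts in unstimulated cells, 150.4, 159.1, 145.3 and 133.7 in vehicle, 112.7, 134.3, 117.6 and 127.7 under belinostat, and 132.2, 148.5, 147.3 and 152 under GSK-J4. Its belinostat libraries were low and overlapped the vehicle and GSK-J4 libraries in replicate 18. The interval of HOXB7 in belinostat against GSK-J4 ran from -0.21 to 0.12 on the log2 scale, and that of HOXD8 from -0.48 to -0.0059.

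**Figure D3:**
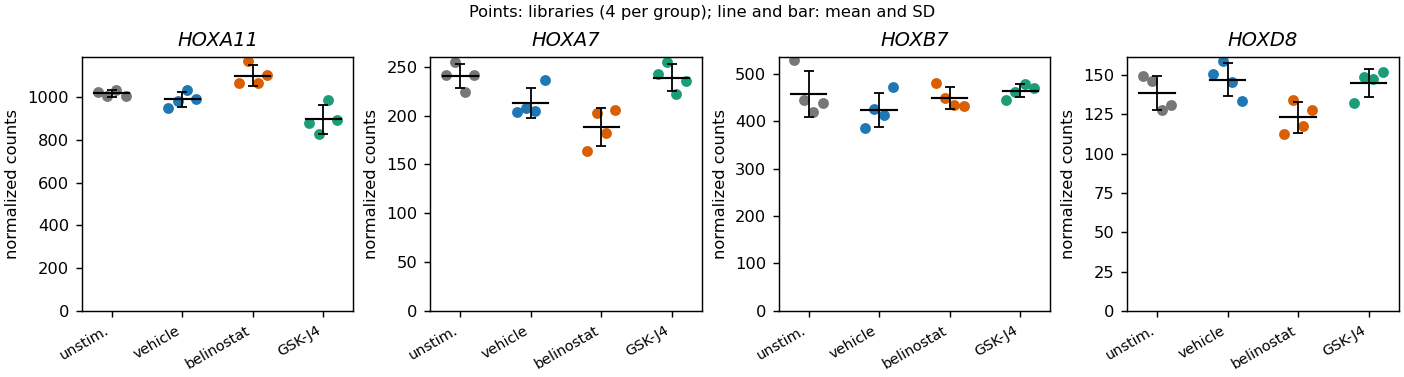
Normalized counts of HOXA11, HOXA7, HOXB7 and HOXD8 in each of the 16 libraries by group, with the group mean and SD (n = 4) as a line and bar; axes start at 0. The belinostat points of HOXA11 (1064 to 1170) sit above all others and those of HOXA7 (163.3 to 205.6) below all GSK-J4 points.

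Markers of another cell type moved in the same comparison as HOXA11 and HOXA7. Summed over the 5 smooth muscle and pericyte markers, normalized counts were 4875 to 6602 in unstimulated cells, 6072 to 6749 in vehicle, 7212 to 7775 under belinostat and 8415 to 9544 under GSK-J4, with DES at no more than 3 counts in a library. In belinostat against GSK-J4, 4 of 4 tested were called, MYH11 (-1.33), CNN1 (-0.85) and RGS5 (-0.57) lower and MCAM (0.52) higher, and KRT8 (0.33) and KRT18 (0.98) were the epithelial markers called. The summed epithelial markers were 1952 to 3449 normalized counts under belinostat and 1471 to 1690 under GSK-J4. Of 10 fibroblast markers 5 were called, all lower under belinostat, and of 9 proliferation markers tested 1 was called, TOP2A at -0.65. Of all genes tested, 12.2% were called in this comparison. The TOP2A call was lost without belinostat replicate 17, 18 or 19 or GSK-J4 replicate 21, 22 or 24 (DESeq2 adjusted p from 0.0538 to 0.106). The part of the markers in the HOX values was not tested.

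Antisense and long noncoding RNAs of the clusters were read next, since several are transcribed from HOX promoters. Of 18 on the list, 6 averaged at least 10 normalized counts, among them HOXA11-AS with a mean of 223.5 and HOTAIRM1 with 87.79. In vehicle against unstimulated 0 of 8 tested were called (median -0.12), in belinostat against vehicle 0 of 7 (median -0.04), in GSK-J4 against vehicle 1 of 6 (median -0.0031) and in belinostat against GSK-J4 2 of 8 (median -0.10). In the first 2 of these, DESeq2 gave 0 of the list an unadjusted p under 0.05. Of all genes tested, DESeq2 called 1.74%, 6.26%, 1.92% and 12.2% in the 4 comparisons, in the same order. HOXA11-AS had 218.9, 235.7, 274.8 and 238.8 normalized counts in vehicle, 239.6, 229.6, 220.1 and 258.5 under belinostat, and 189.2, 192.5, 171.7 and 201.2 under GSK-J4, and every GSK-J4 library was below every vehicle and belinostat library. It was lower in GSK-J4 than in vehicle by -0.36 (SE 0.11, DESeq2 adjusted p = 0.0461), a call lost in edgeR (adjusted p = 0.0927) and on leaving out any GSK-J4 library or vehicle replicate 14, 15 or 16 (DESeq2 adjusted p up to 0.315). Belinostat exceeded GSK-J4 by 0.33 (SE 0.11, DESeq2 adjusted p = 0.0256), and that call was lost without belinostat replicate 17 or 20 or GSK-J4 replicate 21, 22 or 23 (DESeq2 adjusted p up to 0.12).

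HOTAIRM1 had 68.74, 68.38, 70.12 and 69.57 normalized counts under belinostat and 84.42, 104.4, 86.36 and 142.5 under GSK-J4, without overlap. Its log2 fold change in belinostat against GSK-J4 was -0.59 (SE 0.19, DESeq2 adjusted p = 0.0194). The call was lost without belinostat replicate 18 or 20 (DESeq2 adjusted p of 0.0503 and 0.0507) and without GSK-J4 replicate 22 or 24 (0.0562 and 0.153). Homeobox genes flanking the clusters (EVX1 and EVX2) and ParaHox genes, which are relatives of the HOX clusters, had 0 of 8 genes passing the filter in DESeq2, so none had a test. Of these, CDX2, a regulator of intestinal epithelium, averaged 1.409 normalized counts.

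TALE cofactors were expressed, 8 of 9 at a mean of at least 10, and PBX2 averaged 2262 normalized counts. In vehicle against unstimulated 0 of 9 were called in DESeq2 (median 0.03, 1 with an unadjusted p under 0.05), and in belinostat against vehicle 0 of 8 (median -0.08, 0 with an unadjusted p under 0.05). PBX3 was the only 1 of 8 called in GSK-J4 against vehicle (median of the list 0.01), where 1.92% of all genes were called. PBX3 and MEIS2 were the 2 of 9 called in belinostat against GSK-J4 (median -0.09), where 12.2% of all genes were called. PBX3 had 526.3, 471.4, 420.1 and 376.2 normalized counts in vehicle, 303.6, 443.3, 433.7 and 344.7 under belinostat, and 590.9, 693.2, 653.3 and 658.2 under GSK-J4. The GSK-J4 libraries were above all 12 others. PBX3 was higher in GSK-J4 than in vehicle by 0.53 (SE 0.12, DESeq2 adjusted p = 0.00163) and lower in belinostat than in GSK-J4 by -0.77 (SE 0.12, DESeq2 adjusted p = 1.62e-08). MEIS2, at 1166 to 1353 normalized counts under belinostat and 1361 to 1551 under GSK-J4, differed by -0.26 (SE 0.06, DESeq2 adjusted p = 0.000627). In GSK-J4 against vehicle MEIS2 was at 0.19 and not called (DESeq2 adjusted p = 0.0706), and it gained a call without vehicle replicate 14 (0.0495) or GSK-J4 replicate 21 (0.0242).

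Polycomb genes averaged at least 10 normalized counts for all 24 on the list. In DESeq2, 0 of 24 were called in vehicle against unstimulated (median -0.04, 0 with an unadjusted p under 0.05) and 0 of 24 in GSK-J4 against vehicle (median 0.0080, 3 with an unadjusted p under 0.05). In belinostat against vehicle 1 of 24 was called (median 0.02), where 6.26% of all genes were called. It was PHC2, a subunit of the Polycomb complex that modifies histone H2A, lower by -0.16 (SE 0.04, DESeq2 adjusted p = 0.00804). That call was lost without vehicle replicate 16 (DESeq2 adjusted p = 0.0504), without belinostat replicate 20 (0.0569) and in a fit of these 2 groups alone (0.0535). In belinostat against GSK-J4, 8 of 24 had an unadjusted p under 0.05 in DESeq2, where 22.6% of all genes did. Of the 24, 2 were called (median 0.03), where 12.2% of all genes were called. They were PHC2 at -0.20 (SE 0.04, DESeq2 adjusted p = 0.000169) and RING1, a ubiquitin ligase of the same complex, at -0.17 (SE 0.06, DESeq2 adjusted p = 0.0346). The RING1 call was lost without belinostat replicate 17, 18 or 20, without GSK-J4 replicate 22 or 23 and in a fit of these 2 groups alone (DESeq2 adjusted p from 0.0688 to 0.189). In the same comparison PHF19 (0.19), PCGF5 (0.15), CBX6 (-0.11), CBX7 (0.25) and CBX8 (0.23) were not called, and each gained a call under an alternative. These were PHF19 and CBX8 without belinostat replicate 17 (DESeq2 adjusted p of 0.00423 and 0.0454), CBX7 without belinostat replicate 19 (0.0135), PCGF5 without belinostat replicate 19 or GSK-J4 replicate 21 (0.0457 and 0.0327), and CBX6 with TMM factors or without belinostat replicate 18 (0.0468 and 0.0358). Of the 12 trithorax genes and H3K27 demethylases, 0 were called in each of the 4 DESeq2 comparisons, with medians of 0.07, 0.02, -0.05 and 0.07 in the order above and 1, 0, 1 and 2 genes with an unadjusted p under 0.05. KMT2A, which encodes a trithorax methyltransferase of lysine 4 on histone H3, averaged 2590 normalized counts. KDM6B, an H3K27 demethylase of the family that GSK-J4 inhibits, gained a call in vehicle against unstimulated without unstimulated replicate 3 (0.22, DESeq2 adjusted p = 0.049, with 0.604 over all libraries) and in belinostat against GSK-J4 when only these 2 groups were fitted (0.18, DESeq2 adjusted p = 0.0117, with 0.106 in the fit of all groups).

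The retinoic acid list held 16 genes, of which 10 averaged at least 10 normalized counts. In vehicle against unstimulated 4 of 11 tested were called (median -0.08), where 1.74% of all genes were called. ALDH1A3, which makes retinoic acid, was higher by 0.70 (DESeq2 adjusted p = 0.0166), and CYP26B1, which degrades it, was higher by 0.53 (DESeq2 adjusted p = 0.0119). ALDH1A1, another synthetic enzyme, was lower by -0.36 (DESeq2 adjusted p = 0.047) and DHRS3, which turns retinal back to retinol, by -0.44 (DESeq2 adjusted p = 0.0146). Each of these calls was lost without 1 or more single libraries. ALDH1A1 lost it without vehicle replicate 13, 15 or 16 and without unstimulated replicate 1, 2 or 4 (DESeq2 adjusted p up to 0.275) and ALDH1A3 without vehicle replicate 13, 15 or 16 and without unstimulated replicate 1 or 2 (up to 0.11). CYP26B1 lost it without vehicle replicate 16 and without unstimulated replicate 1 or 2 (up to 0.141) and DHRS3 without vehicle replicate 14 or 16 and without unstimulated replicate 1 or 3 (up to 0.143). In edgeR ALDH1A1 and CYP26B1 were not called (adjusted p of 0.142 and 0.0795).

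CYP26B1 was the retinoic acid gene called higher than vehicle under each compound. It had 516.3, 568.6, 618.8 and 664.9 normalized counts in unstimulated cells, 696.7, 806.8, 805.7 and 1108 in vehicle, 1141, 1265, 1212 and 1632 under belinostat, and 1430, 1248, 1608 and 1441 under GSK-J4. No library of either compound overlapped vehicle. The log2 fold change was 0.62 (SE 0.14, DESeq2 adjusted p = 0.000286) for belinostat and 0.74 (SE 0.14, DESeq2 adjusted p = 2.68e-05) for GSK-J4, against the same vehicle libraries. In belinostat against vehicle 3 of 10 were called (median 0.08), where 6.26% of all genes were called. DHRS3 was higher by 0.37 (DESeq2 adjusted p = 0.0285), lost without vehicle replicate 14 or 16, without belinostat replicate 18 or 19, and in a fit of these 2 groups alone (DESeq2 adjusted p from 0.071 to 0.188). CYP26B1 was the only 1 of 9 called in GSK-J4 against vehicle (median 0.01), where 1.92% of all genes were called. In belinostat against GSK-J4, 2 of 10 were called (median 0.01), where 12.2% of all genes were called. Among the 2 was RXRA, a nuclear receptor for retinoids, at 0.36 (SE 0.08, DESeq2 adjusted p = 0.000379). RXRA gained a call against vehicle without belinostat replicate 19 (0.25, DESeq2 adjusted p = 0.0363, with 0.205 over all libraries). Without belinostat replicate 17, ALDH1A1 was called higher under belinostat than in vehicle (0.27, DESeq2 adjusted p = 0.00858, with 0.562 over all libraries) and than under GSK-J4 (0.34, DESeq2 adjusted p = 0.00022, with 0.188 over all libraries).

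Other transcription factors that mark position in fibroblasts were on a list of 24, of which 22 were in the table and 10 averaged at least 10 normalized counts. PITX1, a hindlimb factor, averaged 7273 normalized counts, and FOXF1, a gut mesenchyme factor, averaged 6303. In DESeq2, 0 of 11 were called in vehicle against unstimulated (median -0.08, 2 with an unadjusted p under 0.05) and 0 of 10 in GSK-J4 against vehicle (median 0.02, 0 with an unadjusted p under 0.05). In belinostat against vehicle 2 of 11 were called (median 0.10), where 6.26% of all genes were called. TBX3, a T-box repressor, had 793.8, 730.2, 817.8 and 870.4 normalized counts in vehicle and 1285, 1134, 985 and 1221 under belinostat, and the log2 difference was 0.53 (SE 0.08, DESeq2 adjusted p = 4.01e-08). PITX1 had 7312, 7227, 6958 and 7961 normalized counts in vehicle and 6860, 6003, 5800 and 5998 under belinostat, a log2 difference of -0.26 (SE 0.07, DESeq2 adjusted p = 0.0061), lost without vehicle replicate 16 (-0.22, DESeq2 adjusted p = 0.0555). Neither gene overlapped between these groups. In belinostat against GSK-J4, 3 of 11 were called (median -0.05), where 12.2% of all genes were called. They were TBX3 at 0.59 (DESeq2 adjusted p = 1.45e-10), TBX2, its paralog, at 0.30 (DESeq2 adjusted p = 0.00365) and PITX1 at -0.33 (DESeq2 adjusted p = 4.70e-05). Leaving out a library gave further calls to NKX2-3 in vehicle against unstimulated (-0.47 without unstimulated replicate 1, DESeq2 adjusted p = 0.0386), to TBX2 in belinostat against vehicle (0.26 without belinostat replicate 18 or 19, 0.0357 and 0.0318) and to FOXF1 in belinostat against GSK-J4 (0.19 without belinostat replicate 19, 0.0417). Over all libraries their DESeq2 adjusted p was 0.177, 0.125 and 0.139.

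**Figure D4:**
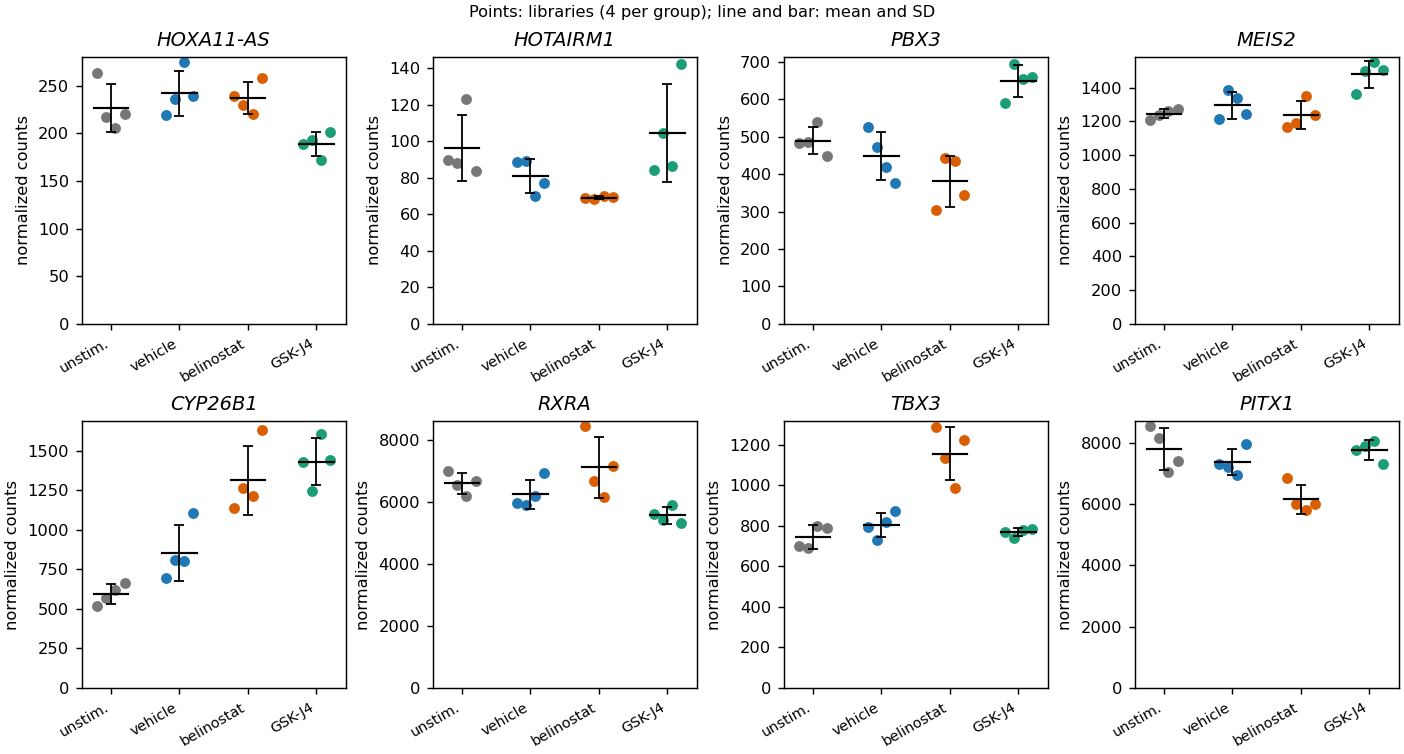
Normalized counts of HOX antisense RNAs (HOXA11-AS, HOTAIRM1), cofactors (PBX3, MEIS2), retinoic acid genes (CYP26B1, RXRA) and positional factors (TBX3, PITX1) in each library by group, with the group mean and SD (n = 4); axes start at 0. PBX3 is high in the 4 GSK-J4 libraries (590.9 to 693.2), and TBX3 is high (985 to 1285) in the 4 belinostat libraries.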

How the data were processed

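Bulk RNA-seq of 16 Ccd18-Co cultures in 4 groups of 4 was read from a single table. The values deposited by the authors are estimated counts per gene symbol from kallisto (0.48.0 per the submitters' processing notes, which also name FastQC 0.11.9, MultiQC 1.14 and hg38), not scaled to depth; 28% had decimals and they were rounded here. How transcripts were summed to symbols and the strand setting are not given in the sources used here. The unstimulated columns carry the word none where the titles say DMSO, and were matched by number. If the columns are right, vehicle and unstimulated cells differed by DMSO as well as by the cytokines, which the comparison cannot tell apart.

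One DESeq2 1.42.0 Wald test (R 4.3.3, group as factor, all 16 libraries, median-of-ratios factors, default independent filtering) gave 4 comparisons, with calls at p under 0.05 after Benjamini-Hochberg adjustment. Alternatives were edgeR 4.0.16, TMM factors, a filter at a mean of 10 counts, the 2 groups compared alone, each replicate left out and, for levels, merged exon length. The tests were checked on simulated data with planted changes larger than any HOX difference called here. The check therefore does not cover differences of the size seen in the HOX genes. Lengths and exons came from GENCODE v44, promoters from RefSeq; the authors' annotation may differ. The HOX genes, the 7 lists of other genes and the marker lists were chosen with earlier results of these data known. Values per library are given for every HOX gene called and the most abundant of each cluster; of the lists, called genes and at most 4 others by mean count are named. HOXA3, HOXA5, HOXA10, HOXB3, HOTAIR, HOXA-AS3, the group 13 genes and the list genes that gained a call only under an alternative were named after their values were seen. Some genes are not reported here.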

Additional observations from a re-analysis of the deposited data

Results flagged for a closer look

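Among the 21 expressed HOX genes in 4 groups of 4 libraries, 5 of 84 sets of values held a library whose gap to the nearest other exceeded Dixon's 95% critical value, as a share of the range; chance alone flags about 1 in 20 sets, or 4.2 of 84. HOXA3 was 143.6 normalized counts in GSK-J4 replicate 24 and 92.15 to 98.55 in the other GSK-J4 libraries. In the same library HOXA6 was 35.64, against 28.48 to 29.46. HOXA7 was 236.1 in vehicle replicate 16, against 203.7 to 207.9 in the other vehicle libraries. HOXA9 was 320.4 in belinostat replicate 19, against 393.5 to 401.7 in the other belinostat libraries. HOXB4 was 192 in unstimulated replicate 1, against 219.3 to 221.2 in the other unstimulated libraries.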

How the results depend on the processing

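Of 1048 values recomputed under an alternative, 923 kept their direction and their side of the threshold, or, for levels, moved by less than the spread. The count of HOX genes called stayed at 0 in the comparisons of vehicle with unstimulated cells and of each compound with vehicle, under edgeR, TMM factors, the filter on low counts, the 2 groups alone and each replicate left out. In belinostat against GSK-J4 it was 2 under the first 4 of these and 1 to 2 with a replicate left out: HOXA11 alone was called without belinostat replicate 17 and without GSK-J4 replicate 22. No HOX gene gained a call in these alternatives. HOXD8 in GSK-J4 against vehicle, at -0.02 on the log2 scale and not called, ranged from -0.064 to 0.022 with a replicate left out, and turned above 0 without vehicle replicate 14 (0.019) or GSK-J4 replicate 21 (0.022); the cause was not tested. With merged exon length the level of HOXB7 was 295.1 per kb in place of 329.1, by the construction of that alternative, and the 4 highest genes kept their order. Other levels fell by more, to 208.3 per kb for HOXA10 (from 304), 129.2 for HOXB2 (from 188.6), 122.1 for HOXA9 (from 179.4) and 53.72 for HOXB3 (from 94.79). Further down the order changed, with HOXB4 above HOXA7, HOXB6 above HOXB3 and HOXD8 above HOXA5. No paired analysis was possible because the groups share no replicate numbers. Depth limits the 8 HOX genes with means of 10 to 50 normalized counts, whose intervals were wider than 0.5 on the log2 scale on at least 1 side in every comparison, and gives no test for most of the 18 genes below that or without counts.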
